A study of Mus musculus with 12 samples.

Results

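This comparison asked what oxidized low-density lipoprotein (oxLDL) accumulation did to the transcriptome of macrophages that were not stimulated with LPS, outside cholesterol synthesis. The macrophages (PMφs) were elicited with thioglycolate in wild-type C57BL/6J littermates of 8 to 12 weeks, male and female, and were collected from the peritoneum 4 days later. Per the methods, the cells of an experiment were pooled, split into 4 cultures and left to adhere for 18 h, so a library stands for a pool of mice and not for 1 mouse. Control PMφs received no oxLDL, and oxLDL PMφs were cultured with 100 µg/ml human oxLDL for 24 h. Each group had 3 libraries, numbered 1 to 3, and a number was taken as 1 pool. The remaining 6 of the 12 libraries received 10 ng/ml LPS, alone or with oxLDL, for a time the sources do not give for these libraries, and are used only at the end. Genes entered when their normalized count reached 10 in at least 3 of the 6 libraries without LPS. Of the 43278 rows deposited, 12751 did so, and 12734 of those carried a gene symbol and were tested. The normalized count is the authors' count of a gene divided by 1 factor per library and rounded.

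Macrophages take up oxLDL through scavenger receptors and hold its sterols and oxidized lipids. Oxidized lipids and their aldehydes react with the sensor protein KEAP1, which frees the transcription factor NRF2 to switch on genes that make glutathione, reduce peroxides and supply NADPH. Inflammatory macrophages also present antigen on MHC class II, whose genes depend on the coactivator CIITA, and follow chemokines with G protein-coupled receptors that can change with maturation.

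The libraries carried macrophage transcripts throughout. The normalized counts of 10 macrophage markers, among them Cd68, Lyz2 and Itgam, summed to between 239844 and 273661 in control and to between 235713 and 249207 in oxLDL PMφs, and Adgre1 was not analysed here. Of these 10 markers Cd5l was called higher and Csf1r and Fcgr1 lower. Markers of B cells summed to at most 73, of T cells to at most 25, of mast cells to at most 55 and of dendritic cells to at most 71 in any of the 6 libraries. Neutrophil markers summed to between 1111 and 1814, nearly all from Csf3r, with Ly6g at 0 in every library. Collagen and mesothelial genes were detected, with sums of 5020 to 22770 in control and 5289 to 18505 in oxLDL PMφs, and 0 of the 8 were called. The pools differed in sex-linked transcripts. Xist was at 1 and 2 in the control and oxLDL libraries of pool 1, at 6730 and 5933 in pool 2 and at 3538 and 3568 in pool 3. Ddx3y, on the Y chromosome, was at 1156 and 1132 in pool 1, at 0 and 0 in pool 2 and at 707 and 718 in pool 3. Both genes were therefore alike within a pool and far apart between pools, and the comparison was made within pools.

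In the fit with the pool as a block, 599 genes were called, 4.7% of those tested (limma, Benjamini-Hochberg adjusted p under 0.1). Of these 228 genes were higher in oxLDL PMφs, 1.79% of those tested, and 371 were lower, 2.91%. A log2 difference below is the mean over the pools of oxLDL minus control on the log2(normalized count + 1) scale, with its standard error (SE). In bulk RNA fewer cells of a type and less RNA per cell cannot be told apart. Left out next were the cholesterol genes and a list of 74 genes taken as named by the study, referred to below as the study's own. Some of the 74, such as H2-K2, Angptl4, Gsta3, Hmox1, Scd1 and Fasn, do not occur in its text. Then 217 higher and 332 lower genes remained, and all 549 had the same sign in the 3 pools. Most differences were small. Only 16 of the 549 exceeded 1 and 105 exceeded 0.5 in size on the log2 scale, and the medians were 0.30 for higher and -0.27 for lower genes, against -0.01 over all genes tested. Control and oxLDL libraries did not overlap for 195 of the 549 genes and for 979 genes in all, which is 7.69% of those tested. The calls rested on the pairing: without the block 0 genes were called, the smallest adjusted p was 0.251, and 379 genes, 2.98%, had an unadjusted p under 0.05, 149 higher (1.17%) and 230 lower (1.81%). They also rested on single pools, with 105 genes called without pool 1, 62 without pool 2 and 1021 without pool 3. Pool 3 gave the largest of the 3 differences for 151 of the 217 higher and 228 of the 332 lower genes.

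**Figure D1:**
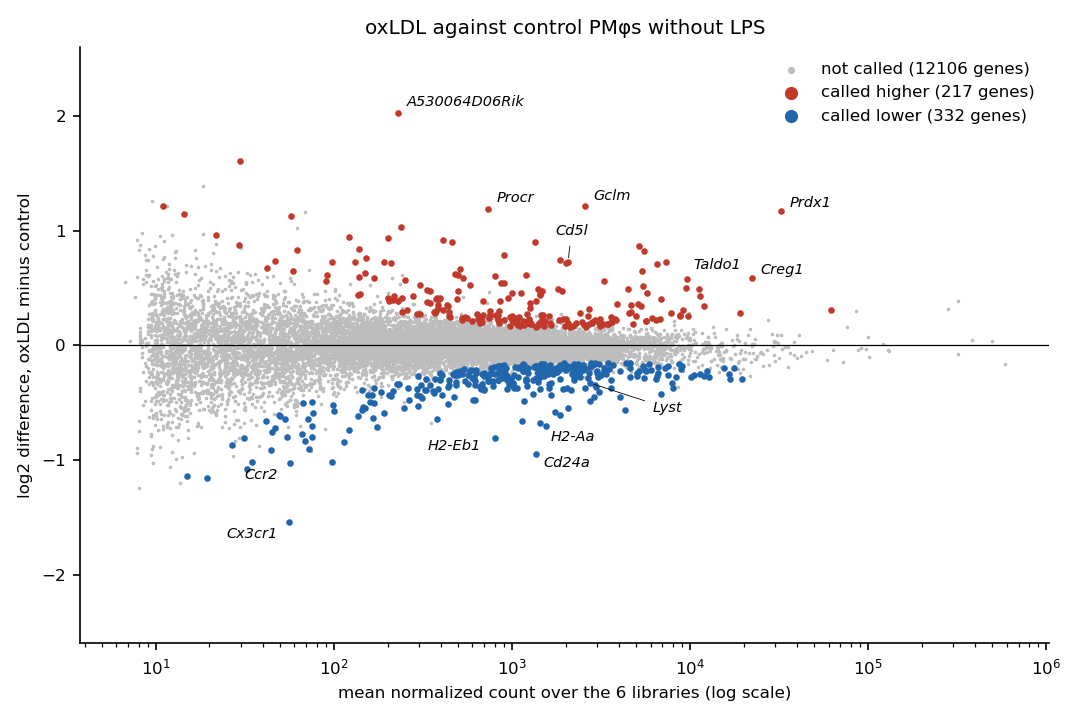
Each point is a gene, with its mean normalized count over the 6 libraries on the x axis (log scale) and the log2 difference between oxLDL and control PMφs on the y axis. The 217 genes called higher and 332 called lower stand out from the 12106 that were not called, mostly by less than 1 log2 unit.

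Antioxidant genes under NRF2 had the highest median log2 difference of the gene lists. Of 37 listed regulators and targets, all tested, 21 were higher and 0 lower, and 20 of the 35 outside the study's own genes were higher. Over all tested genes 1.79% were higher and 2.91% lower. The median log2 difference over the 37 was 0.46, against -0.01 over all genes. Gclm, the modifier subunit of the enzyme that starts glutathione synthesis, had normalized counts of 1750, 670 and 1624 in the control libraries of pools 1, 2 and 3 and of 2639, 1183 and 7556 in the oxLDL libraries. It rose in every pool and most in pool 3, but pool 2 with oxLDL stayed below the other controls, so the groups overlapped. The log2 difference was 1.21 (SE 0.22, limma adjusted p = 0.0175). Prdx1, a peroxide-reducing peroxiredoxin, went from 20180, 11072 and 22304 to 35541, 18103 and 88225 (log2 difference 1.17, SE 0.18, adjusted p = 0.00985). Its oxLDL library of pool 3 stood far above the 5 others. Slc7a11, which imports cystine for glutathione, was at 312, 252 and 322 in control and at 443, 338 and 1101 in oxLDL PMφs (log2 difference 0.90, adjusted p = 0.0367). Here every oxLDL library exceeded every control library. Srxn1, which repairs overoxidized peroxiredoxins, rose from 4085, 1957 and 4196 to 5282, 3097 and 12329 (log2 difference 0.86, adjusted p = 0.0175).

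The promoter stretches of Gclm, Prdx1 and Procr are printed because their transcripts rose and each holds the core of an antioxidant response element, the site that NRF2 binds with a small MAF partner. Capitals mark the letters TGACNNNGC on either strand, and the stretches come from RefSeq on GRCm38.p6, read along the strand of the gene at chr3:122245401-122245453 (plus), chr4:116685444-116685496 (plus) and chr2:155751041-155751093 (plus).
Gclm: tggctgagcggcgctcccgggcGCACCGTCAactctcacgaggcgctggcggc
Prdx1: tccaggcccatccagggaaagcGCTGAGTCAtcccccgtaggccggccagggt
Procr: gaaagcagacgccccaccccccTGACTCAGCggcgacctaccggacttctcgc
The core was present in the RefSeq window around the gene start in 6 of the 15 higher NRF2-list genes that had a window, or 40%. It was also present in 17.4% of 9382 tested genes, in 18.3% of 175 genes called higher and in 18.5% of 265 called lower, so over all called genes the share was near that of any tested gene. The Prdx1 and Procr stretches contain the AP-1 letters TGANTCA as well, which overlap the core.

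Other members act on peroxides, disulfides and quinones. Catalase (Cat) rose by a log2 difference of 0.82. Thioredoxin reductase (Txnrd1) rose by 0.71, from 5776, 3097 and 5630 to 7266, 4731 and 12819. Gclc, the catalytic partner of Gclm, rose by 0.54 and glutathione reductase (Gsr) by 0.49. Enzymes of the pentose phosphate pathway, a main source of NADPH, rose by 0.58 for Taldo1, 0.49 for Pgd and 0.36 for G6pdx. Taldo1 was at 8519, 5644 and 8728 in control and 11329, 7983 and 15410 in oxLDL PMφs (adjusted p = 0.00178), again with pool 2 lowest in both groups. The glutathione conjugate exporter Abcc1 (0.74), the autophagy receptor Sqstm1 (0.30), Osgin1 (0.72), the peroxiredoxin Prdx6 (0.37) and thioredoxin (Txn1, 0.26) were called too. The transcripts of the regulators did not pass: Nfe2l2, which encodes NRF2, had a log2 difference of -0.13 (adjusted p = 0.22), Keap1 of 0.13 (adjusted p = 0.20) and Bach1 of -0.04 (adjusted p = 0.68). Nqo1, a classic target, was at 21, 26 and 44 in control and at 49, 23 and 248 in oxLDL PMφs and also missed the threshold (log2 difference 1.16, adjusted p = 0.135), with pool 2 slightly down.

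For all 20 higher antioxidant genes outside the study's own, pool 3 gave the largest difference. Their median log2 difference was 0.35 in pool 1, 0.35 in pool 2 and 1.11 in pool 3. Against 21 higher members in the fit with 3 pools, 11 members of the list were called higher without pool 1, 3 without pool 2 and 22 without pool 3. With all 12 libraries in the fit the count was 1, and under robust eBayes it was 9.

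**Figure D2:**
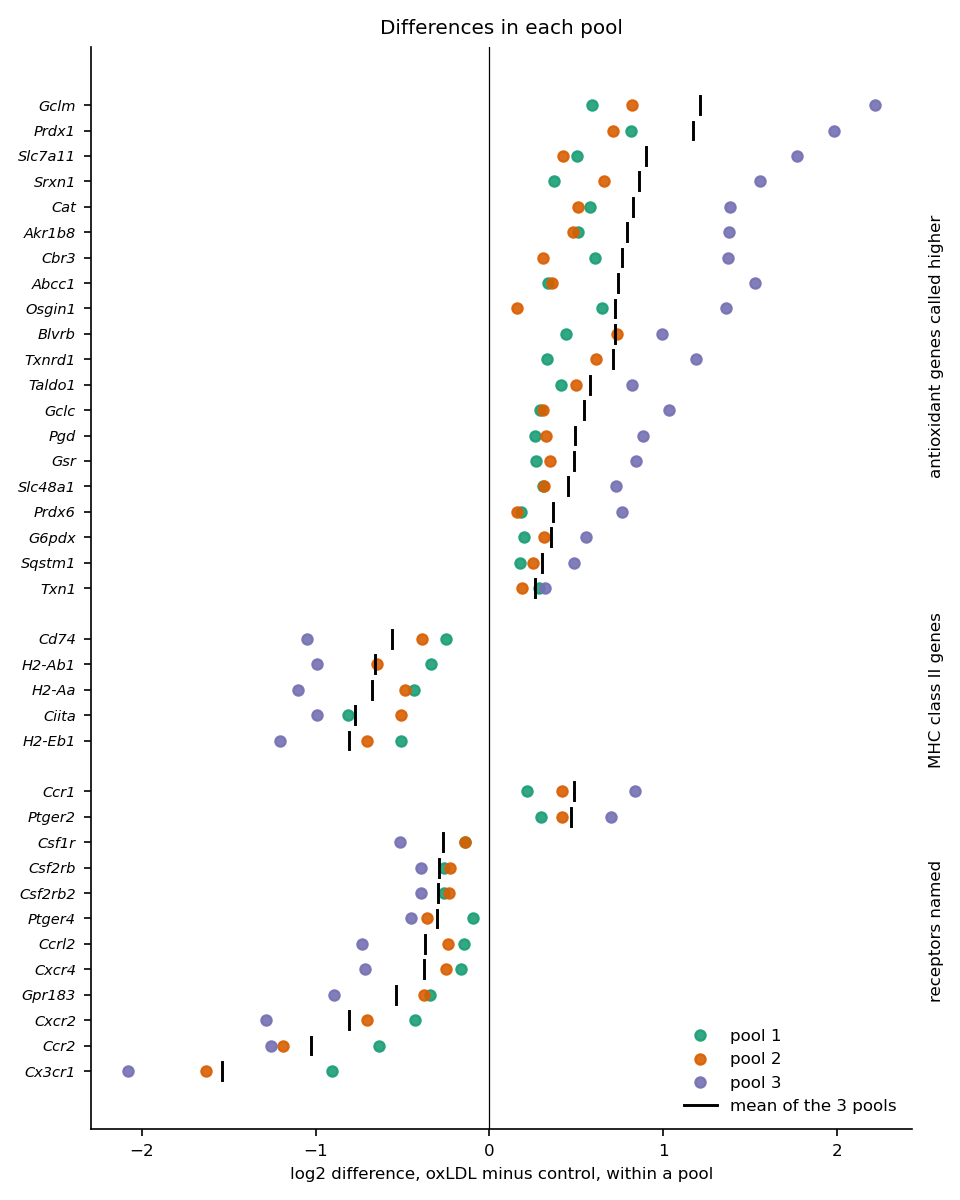
Points give the log2 difference between the oxLDL and control libraries of pools 1, 2 and 3 for the antioxidant genes called higher, the MHC class II genes and 12 called chemoattractant and growth factor receptors, and black bars their mean. All points of a gene lie on 1 side of 0, and the pool 3 point lies farthest out for each gene, with 1.11 as the pool 3 median of the antioxidant genes against 0.35 in pools 1 and 2.

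Some iron and heme genes were higher. Of 30 tested genes for iron, heme and metallothionein, 8 were higher and 0 lower, against 1.79% and 2.91% of all tested genes. Of the 8, 7 were outside the study's own. The list median was 0.07, and 12 of the 30 had a negative sign. The count of 8 was 4 without pool 1, 1 without pool 2 and 2 with all 12 libraries in the fit. Blvrb and Slc48a1 were counted in the antioxidant list too. Blvrb, which reduces biliverdin to bilirubin after heme is opened, went from 1652, 846 and 1959 to 2241, 1405 and 3894 (log2 difference 0.72, SE 0.08, adjusted p = 0.00115). Tfrc, the transferrin receptor, went from 5664, 2620 and 5073 to 6971, 3669 and 8534 (0.51, adjusted p = 0.00401). In both genes every pool moved up and pool 2 was lowest in both groups. The heme transporter Slc48a1 (0.45), the first enzyme of heme synthesis Alas1 (0.49), the phagosomal metal transporter Slc11a1 (0.34), Blvra (0.17) and the metallothionein Mt2 (0.56) were also higher. The ferritin chains Fth1 (0.38, adjusted p = 0.27) and Ftl1 (0.32, adjusted p = 0.32) and the iron exporter Slc40a1 (0.46, adjusted p = 0.27) did not pass.

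Of 31 tested enzymes that remove lipid aldehydes, 6 rose and 1 fell (median 0.05), where 1.79% of all tested genes were higher and 2.91% lower. Called higher were 1 without pool 1 and 0 without pool 2 or with all 12 libraries. Akr1b8 and Cbr3 were counted among the antioxidant genes as well. Ptgr1, which reduces the double bond of 4-hydroxynonenal and leukotriene B4 products, had 1017, 622 and 963 in control and 1576, 815 and 3084 in oxLDL PMφs (log2 difference 0.90, SE 0.17, adjusted p = 0.0227). The aldo-keto reductases Akr1b8 (0.79), Akr1a1 (0.28) and Akr1b3 (0.16), the carbonyl reductase Cbr3 (0.76) and the aldehyde dehydrogenase Aldh9a1 (0.19) rose as well. Aldh1l1, a folate enzyme of the same superfamily, fell by 0.80, from 72, 90 and 126 to 47, 68 and 47. Among glutathione S-transferases 4 of 17 were higher and 0 lower (median 0.04), and those outside the study's own were Gstp1 (0.40), Gstm1 (0.28) and Mgst1 (0.25). The 4 became 1 without pool 1, 1 without pool 2 and 0 with all 12 libraries. Since paralogs in both families share sequence, single members are uncertain where reads could be split.

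Among higher genes outside the cholesterol genes and the study's own, those with the smallest p-values came from several functions. Angptl4, on the list of the study's own, had a smaller one than these (log2 difference 1.335, adjusted p = 0.000402). Cd5l, a secreted scavenger-receptor protein of macrophages, was at 2196, 852 and 1549 in control and at 3509, 1232 and 3044 in oxLDL PMφs. It lies on chromosome 3 of GRCm38 from 87357881 to 87371073 and had a log2 difference of 0.73 (SE 0.07, adjusted p = 0.000669). The pools differed more than the groups did, and each pool rose. Plau, the urokinase plasminogen activator, on chromosome 14 from 20836660 to 20843385, went from 1137, 1101 and 642 to 1547, 1622 and 1138 (0.61, SE 0.07, adjusted p = 0.00104). Its oxLDL library of pool 3 was only just above the highest control, and the groups did not overlap. Procr, the receptor of protein C on chromosome 2 from 155751117 to 155755471, more than doubled from 514, 335 and 439 to 931, 618 and 1571 (1.19, SE 0.15, adjusted p = 0.00192) with no overlap. Mmp19, a matrix metalloproteinase, rose by 0.56.

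Pla2g7, the phospholipase that hydrolyses platelet-activating factor and oxidized phospholipids, was at 5492, 3946 and 6665 in control and at 8287, 5596 and 14174 in oxLDL PMφs (log2 difference 0.73, SE 0.09, adjusted p = 0.00178). Creg1, a secreted glycoprotein of the endolysosomal route, went from 17253, 14315 and 21113 to 24288, 19639 and 36884 (0.58, adjusted p = 0.00193). Rnf128, an E3 ubiquitin ligase, went from 8596, 6437 and 8523 to 11128, 8492 and 14107 (0.50, adjusted p = 0.00335). In these genes all pools rose, pool 2 was lowest in both groups and pool 3 rose most. The C-type lectin Clec4d went from 4345, 3113 and 4950 to 5998, 4530 and 9476 (0.65, adjusted p = 0.00139). Its neighbour Clec4n, which encodes the fungal receptor dectin-2, went from 87, 32 and 96 to 99, 55 and 359 (0.95, adjusted p = 0.076), with most of the rise in pool 3. Rgs1, which shuts off signalling by G protein-coupled chemokine receptors, went from 1822, 1730 and 1265 to 2349, 2317 and 1966 (0.47, adjusted p = 0.00139) without overlap.

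A530064D06Rik had the largest difference of the genes named by the rule, 2.03 on the log2 scale (SE 0.23, adjusted p = 0.00139). It is a protein-coding gene without an assigned function on chromosome 17 from 48149126 to 48167275. Its values were 116, 13 and 138 in control and 242, 79 and 793 in oxLDL PMφs, so that pool 2 remained below the other controls even after a log2 rise of 2.51. Rims3, of a family that works in synaptic vesicle release, went from 24, 29 and 52 to 71, 46 and 121 (1.13). The pannexin channel gene Panx1 went from 313, 213 and 239 to 442, 242 and 1014 (0.92, adjusted p = 0.0964), and the kinase gene Wnk2 from 179, 73 and 121 to 262, 88 and 487 (0.94, adjusted p = 0.0794). For Panx1 and Wnk2 pool 3 carried most of the change. Gm20658 is annotated antisense to Vipr2 and went from 133, 75 and 195 to 238, 102 and 691 (1.03). Whether strand was used in counting is not given in the sources used here, and reads of Gm20658 and Vipr2 cannot be told apart without it.

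**Figure D3:**
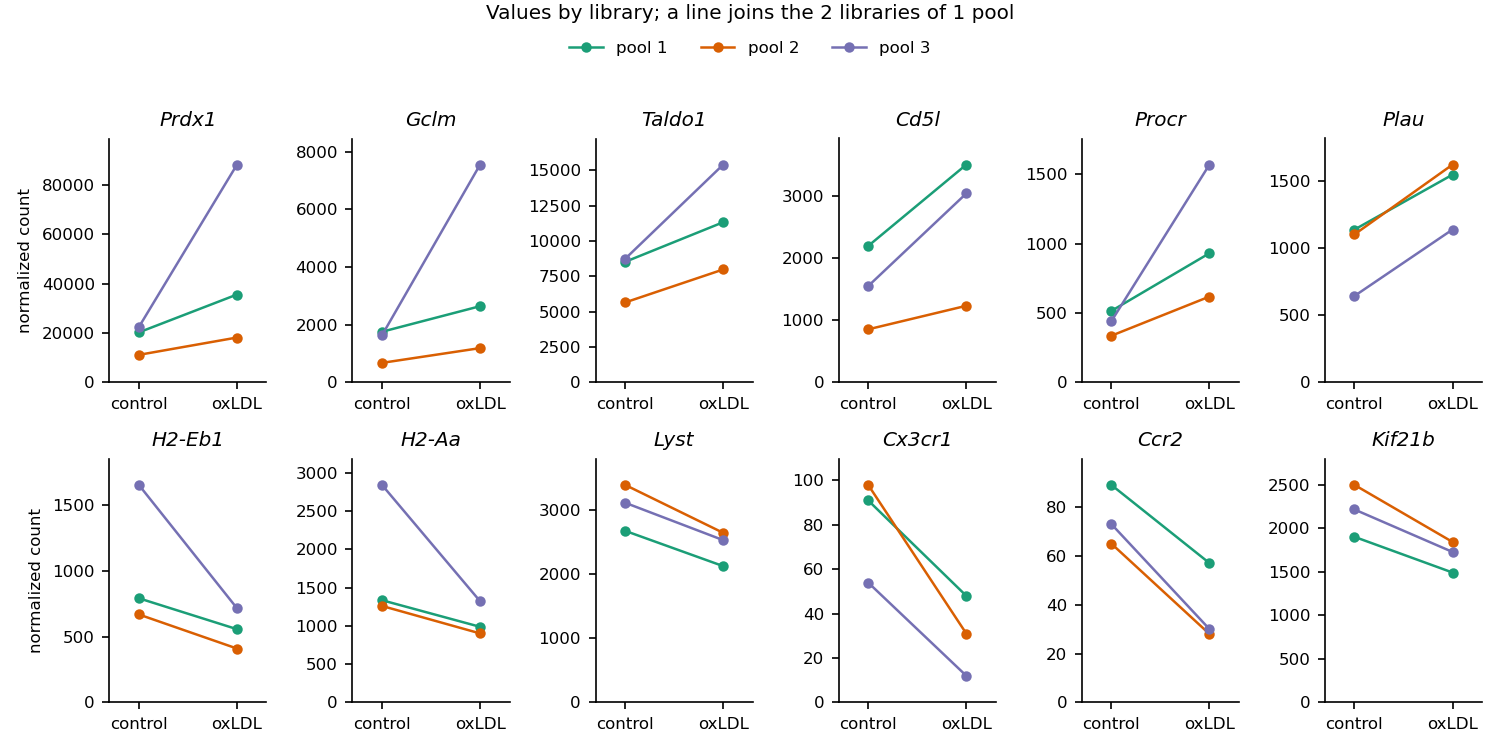
The panels show 12 genes, 6 called higher above and 6 called lower below, with the normalized count on an axis from 0 and a line from the control to the oxLDL library of each pool. Every line runs in the called direction, and the levels of the pools are often farther apart than the groups, as for Cd5l with controls at 852 to 2196.

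MHC class II genes fell together. Of 30 tested genes for antigen presentation, 7 were lower and 0 higher, against 2.91% and 1.79% of all tested genes. Outside the study's own, 6 of 29 were lower. The median of the whole list was -0.09. Of the 7, 5 belonged to class II, namely 3 chains, the invariant chain and Ciita, and 2, H2-K2 and H2-Q4, to class I. H2-Eb1, the beta chain of I-E, was at 791, 668 and 1652 in control and at 556, 409 and 715 in oxLDL PMφs, on chromosome 17 from 34305867 to 34316674 (log2 difference -0.81, SE 0.10, adjusted p = 0.0022). H2-Ab1, a chain of I-A, went from 983, 1084 and 2179 to 778, 693 and 1093 (-0.66, SE 0.09, adjusted p = 0.00521). H2-Aa, its partner, went from 1335, 1260 and 2841 to 987, 901 and 1321 (-0.67, SE 0.10, adjusted p = 0.00821). In all of them pool 3 began at about double the level of the other pools and fell furthest, and each pool fell. The invariant chain gene Cd74 went from 3678, 4934 and 7035 to 3095, 3767 and 3398 (-0.56, adjusted p = 0.0253). Ciita itself went from 43, 66 and 146 to 24, 46 and 73 (-0.77, SE 0.16, adjusted p = 0.0309). The class II chaperone genes H2-DMa (-0.13, adjusted p = 0.66) and H2-DMb1 (-0.18, adjusted p = 0.25) did not pass, nor did the costimulatory genes Cd80 (0.25), Cd86 (0.03) and Cd40 (0.05).

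Of the class I genes, H2-K2, which was on the list of the study's own genes, went from 517, 563 and 582 to 356, 408 and 379 (-0.54, adjusted p = 0.00139), without overlap. H2-Q4 was also lower, with 781, 907 and 737 in control and 620, 772 and 610 in oxLDL PMφs (-0.28, adjusted p = 0.0205). H2-K1 (-0.12, adjusted p = 0.34), H2-D1 (0.16, adjusted p = 0.41), B2m (-0.11, adjusted p = 0.54) and the peptide transporter Tap1 (-0.05, adjusted p = 0.74) did not pass. Class I genes are close paralogs whose reads can be exchanged. The number of lower antigen presentation genes was 5 without pool 1, 2 without pool 2 and 8 without pool 3. It was 4 with all 12 libraries in the fit and 3 under robust eBayes.

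The promoters of H2-Eb1 and H2-Aa both hold the Y box, CTGATTGG, one of the elements on which CIITA and NF-Y assemble at class II genes. Capitals mark it in the RefSeq stretches below, on GRCm38.p6 at chr17:34305783-34305834 (plus strand) and chr17:34287845-34287896 (minus strand, read along the gene), shown because these transcripts fell together with Ciita.
H2-Eb1: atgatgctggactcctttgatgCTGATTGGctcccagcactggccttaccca
H2-Aa: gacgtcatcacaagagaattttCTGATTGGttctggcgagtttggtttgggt
The same 8 letters, on either strand, were in the windows of 6.49% of 9382 tested genes, 8.3% of genes called lower and 9.14% of genes called higher.

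Receptors for chemoattractants and growth factors had the most lower members of any list after cholesterol synthesis. Of 32 tested, 11 were lower and 2 higher, against 2.91% and 1.79% of all tested genes. None of them was among the study's own genes, and the median was -0.20. Cx3cr1, the receptor of fractalkine, was at 91, 98 and 54 in control and at 48, 31 and 12 in oxLDL PMφs (log2 difference -1.54, SE 0.22, adjusted p = 0.00556), on chromosome 9. Ccr2, the receptor that brings monocytes into tissue, went from 89, 65 and 73 to 57, 28 and 30 (-1.03, SE 0.18, adjusted p = 0.0142). Neither gene overlapped between groups, and both were low to begin with. Cxcr2 (-0.81), Gpr183, which senses oxysterols (-0.54), Cxcr4 (-0.38), the chemerin-binding Ccrl2 (-0.37) and the prostaglandin receptor Ptger4 (-0.30) were lower. The receptors of growth factors fell less: -0.30 for Csf2rb2, -0.29 for Csf2rb and -0.27 for Csf1r. Csf2rb2 and Csf2rb are near-identical copies whose reads could be split. Ccr1, from 1335, 812 and 1308 to 1548, 1085 and 2335 (0.49, adjusted p = 0.0179), and the prostaglandin receptor Ptger2, from 309, 188 and 358 to 380, 251 and 583 (0.47, adjusted p = 0.0175), went the other way. Both receptors of complement anaphylatoxin C5a, C5ar1 (-0.02) and C5ar2 (-0.09), did not pass. The count of lower receptors was 3 without pool 1, 1 without pool 2, 10 without pool 3 and 0 with all 12 libraries in the fit.

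Of 7 tested monocyte genes, a list added after the values were seen, 3 were lower and 0 higher. Over all tested genes 2.91% were lower and 1.79% higher. The 3 were Cx3cr1, Ccr2 and the fibronectin gene Fn1 (-0.25), while Chil3 (0.03), F13a1 (-0.12), Ace (-0.04) and Spn (-0.00) did not pass. Fn1 was also counted in the adhesion and matrix list. Its control values were 23393, 20264 and 10551, lowest in pool 3, as were those of the collagen gene Col1a1 (9735, 6937 and 2054). The cell source of Fn1 was not tested. Siglecf, an eosinophil gene also found on some macrophages, fell from 315, 350 and 383 to 258, 303 and 180 (-0.53, adjusted p = 0.0807), whereas Prg2 was at 0 and Epx at 0 or 1 in all 6 libraries.

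Among lower genes outside the cholesterol genes and the study's own, Kif21b had the smallest p. It is a kinesin motor gene on chromosome 1 from 136131389 to 136177998. Its values were 1900, 2496 and 2214 in control and 1490, 1841 and 1726 in oxLDL PMφs (log2 difference -0.38, SE 0.04, adjusted p = 0.00139). Its pools fell by nearly equal steps and the groups did not overlap. Lyst, which governs lysosome size, did not overlap either, with 2682, 3400 and 3121 against 2130, 2650 and 2536 (-0.33, adjusted p = 0.00239). Cd109, a GPI-anchored protein that binds TGF-beta receptors, went from 2852, 3822 and 2925 to 2186, 2952 and 1805 (-0.48, adjusted p = 0.0022). Pld4, an endolysosomal nuclease, went from 2518, 1582 and 2614 to 1923, 1145 and 1329 (-0.61, adjusted p = 0.0065). Mmp14, the membrane-bound metalloproteinase, went from 3546, 2985 and 2055 to 2796, 2523 and 1430 (-0.37, adjusted p = 0.00694). The kinase gene Rps6ka2 (-0.45) and Emc1, a subunit of the membrane protein insertase of the endoplasmic reticulum (-0.34), fell without overlap. Emc1 shares its locus with Ubr4 and 2700016F22Rik.

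Larger falls were found among less abundant genes. Cd24a, a GPI-anchored surface protein, went from 1408, 2294 and 1491 to 908, 1573 and 467 (log2 difference -0.95, SE 0.16, adjusted p = 0.0129), with pool 3 lowest. Iglon5, an adhesion protein of the immunoglobulin family, went from 142, 119 and 125 to 87, 69 and 41 (-1.02, adjusted p = 0.0127) without overlap. Fads2, the delta-6 desaturase, went from 123, 124 and 42 to 62, 55 and 28 (-0.90, adjusted p = 0.0165), and pool 3 was low in both groups. Smpd3, a neutral sphingomyelinase, fell by 0.84, the autophagy gene Atg9b by 0.83 and the adhesion protein gene Flrt3 by 0.80. Gm15448, which lies in the paired immunoglobulin-like receptor cluster of chromosome 7, fell by 0.74 from 135, 170 and 150 to 82, 115 and 77. Copies in that cluster are alike enough to share reads. Of fatty acid synthesis genes, 10 of 20 were lower and 0 higher (median -0.23), against 2.91% and 1.79% of all tested genes. The 10 became 4 without pool 1, 4 without pool 2, 11 without pool 3 and 4 with all 12 libraries in the fit. Outside the study's own, 5 of 15 were lower. Beside Fads2 these were the elongase Elovl6 (-0.62), the desaturase Fads1 (-0.24), Tecr (-0.23) and the citrate carrier Slc25a1 (-0.21).

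Lower genes had longer transcripts than higher ones. The median exonic length was 6277 bases for the 317 of 332 lower genes with a length, 3320 for 214 of 217 higher genes and 4391 for the 12162 tested genes with a length. Across all of those genes the rank correlation between length and the log2 difference was -0.193 in pool 1, -0.204 in pool 2 and -0.025 in pool 3. Genes are not independent replicates, and the part of length in these calls was not tested beyond removing its trend. With trends on length and GC content removed from each library, a step added after the values were seen, 586 genes were called, 499 of them also in the fit as deposited, and 44 of the 44 genes named by the rule stayed called.

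Phagocytic and pattern receptors went both ways. Of 57 tested complement, Fc and clearance receptors, 5 were higher and 10 lower (median -0.04), against 1.79% and 2.91% of all tested genes. These counts were 3 and 2 without pool 1, 1 and 1 without pool 2, and 2 and 2 with all 12 libraries in the fit. Among Fc receptors the activating Fcgr3 rose by 0.21, from 4750, 5204 and 5876 to 5839, 5711 and 6779. The high-affinity Fcgr1 fell by 0.35, from 688, 496 and 919 to 608, 436 and 570, and the inhibitory Fcgr2b by 0.28, from 3713, 7038 and 4389 to 3286, 5994 and 3271. C1qa fell by 0.44 while C1qb (-0.23, adjusted p = 0.17) and C1qc (-0.24, adjusted p = 0.17), its partners in the C1q complex, did not pass. Of C-type lectins other than Clec4d and Clec4n, Clec4e, the mincle receptor, fell by 0.39, and the inhibitory Clec12a by 0.71, from 1507, 1932 and 2309 to 1121, 1660 and 829. The sialic acid-binding Siglec1 (-0.24) and Cd300lf (-0.27) were lower. The efferocytosis receptors Mertk (-0.00), Axl (-0.16) and Trem2 (-0.00) did not pass. Toll-like and pattern receptors had 4 lower and 0 higher of 35, among them Tlr2 (-0.30), the RP105 partner Ly86 (-0.31) and the kinase Irak2 (-0.20). The 4 became 0 without pool 1, 0 without pool 2, 1 without pool 3 and 0 with all 12 libraries in the fit.

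Of 55 adhesion, matrix and protease genes 3 were higher and 8 lower (median -0.04), against 1.79% and 2.91% of all tested genes. The 8 became 1 without pool 1, 1 without pool 2 and 0 with all 12 libraries in the fit. The integrin chains Itga4 (-0.26), Itgal (-0.24), Itgb7 (-0.22) and Itga5 (-0.19), the syndecan Sdc3 (-0.28) and the sheddase Adam19 (-0.44) fell. Itga5 was at 5031, 5036 and 4682 in control and at 4433, 4434 and 4026 in oxLDL PMφs, with equal steps in all pools and no overlap. Transcription factors had 3 higher and 8 lower of 68, and the 8 became 1 without pool 1, 0 without pool 2 and 0 with all 12 libraries. Fos went from 437, 292 and 425 to 703, 372 and 824 (0.66, SE 0.10, adjusted p = 0.00568), Myc rose by 0.43 and Egr2 by 0.21. Maf (-0.29), Mxd1, which opposes MYC (-0.43), Epas1 (-0.30), Rarb (-0.76), Id3 (-0.25), Zeb2 (-0.19), Runx1 (-0.19) and the glucocorticoid-induced Tsc22d3 (-0.31) fell. The lineage factors Spi1 (0.02) and Cebpa (0.00) did not pass.

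Cytokines had 4 higher and 5 lower of 47 genes (median -0.07), against 1.79% and 2.91% of all tested genes. These counts were 1 and 0 without pool 1, 1 and 0 without pool 2, and 0 and 0 with all 12 libraries. Gdf15, a stress cytokine, went from 442, 315 and 369 to 579, 430 and 755 (0.62, adjusted p = 0.0131), and Igf1 rose by 0.25. Pdgfb (-0.44), Pdgfa (-0.31), the interleukin 1 antagonist Il1rn (-0.27) and Il6ra (-0.27) fell. Among 17 chemokines Ccl2 (0.38) and Cxcl5 (0.60) rose and Cxcl16, which doubles as a scavenger receptor, fell by 0.37. Interferon-stimulated genes had 7 lower and 0 higher of 49 with a median of -0.13, and 40 of the 49 had a negative sign. Over all 12734 tested genes 6592 had a negative sign. The 7 became 0 without pool 1, 1 without pool 2 and 3 with all 12 libraries. Those called were Gbp3 (-0.44), Oas3 (-0.38), Rsad2 (-0.28), Stat2 (-0.25), Rnf213 (-0.25), Parp14 (-0.24) and Slfn5 (-0.15).

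Of 32 constitutive proteasome subunits, a list added after the values were seen, 9 were higher and 0 lower, and 31 of 32 had a positive sign (median 0.12). Over all 12734 tested genes 1.79% were higher and 2.91% lower, and 6142 had a positive sign. Psmb5, the chymotrypsin-like catalytic subunit, went from 1334, 899 and 1146 to 1494, 1136 and 1596 (0.33, SE 0.06, adjusted p = 0.0175), and the deubiquitinase Psmd14 of the lid rose by 0.24. The count of higher subunits was 1 without pool 1, 0 without pool 2, 0 with all 12 libraries in the fit and 4 after the length and GC trends were removed. Of 34 ribosome biogenesis genes 4 were higher, Nop58 (0.29), Ddx18 (0.22), Wdr43 (0.21) and Mybbp1a (0.17), and all 34 had a positive sign (median 0.15). That count was 0 without pool 1, 0 without pool 2 and 0 with all 12 libraries. Plexins and semaphorins, also added later, had 5 lower and 0 higher of 21 (median -0.17), led by Sema4d, from 9113, 9162 and 8927 to 7530, 7793 and 5842 (-0.37, adjusted p = 0.0175), and the count was 0 without pool 1, 0 without pool 2 and 1 with all 12 libraries. Heat shock genes had 2 higher of 27 (Hspd1 and Hspa9), and glycolysis genes 1 higher and 3 lower of 34. DNA replication and cell division genes had 0 called of 44 (median 0.03), and 3 of 57 lysosome and autophagy genes were higher and 2 lower.

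**Figure D4:**
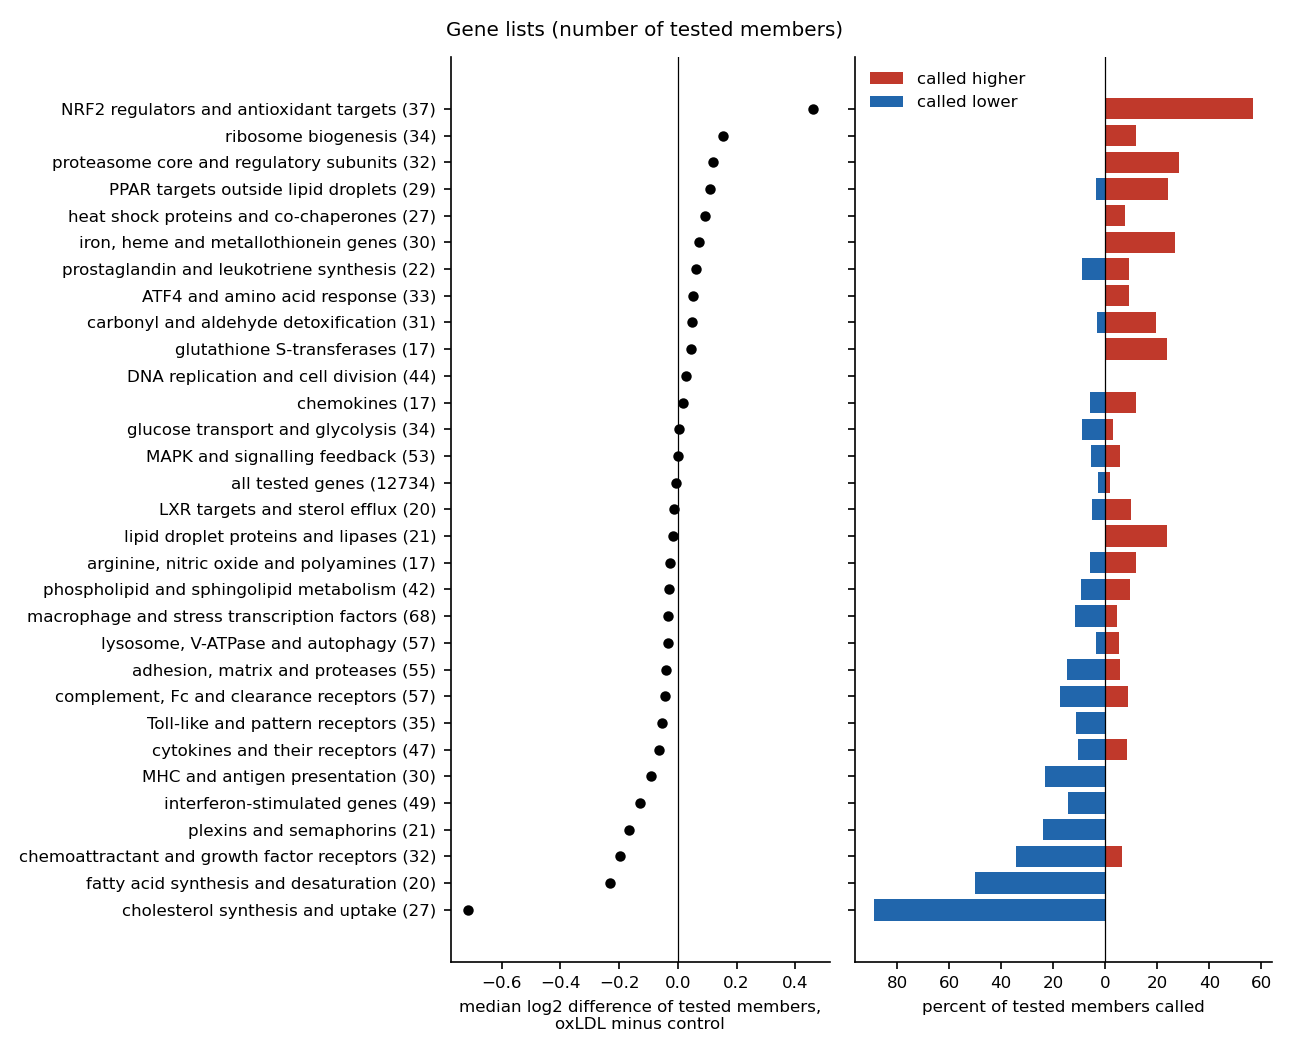
The left panel gives the median log2 difference of the tested members of each list, and the right panel the percent of them called higher (red) and lower (blue), with the number tested in brackets. The antioxidant list has the highest median of the lists drawn at 0.46, followed by ribosome biogenesis at 0.15, and cholesterol synthesis at -0.71, fatty acid synthesis at -0.23 and the receptors at -0.20 lead the lower side. All tested genes sit at -0.01.

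Of 29 tested PPAR targets, which serve lipid uptake and oxidation, 7 were higher and 1 lower (median 0.11), with 3 higher without pool 1, 2 without pool 2 and 4 with all 12 libraries. Of the 7, 3 were on the list of the study's own genes, namely Angptl4 (1.335), Cd36 (0.93) and Cpt1a (0.45). The 4 others included the long-chain acyl-CoA dehydrogenase Acadl, from 2339, 1963 and 2215 to 2798, 2366 and 2763 (0.28, adjusted p = 0.00821), without overlap. Phospholipid and sphingolipid genes had 4 higher and 4 lower of 42, where 1.79% and 2.91% of all tested genes were called so. These counts were 1 and 1 without pool 1, 1 and 1 without pool 2, and 1 and 1 with all 12 libraries in the fit. Pcyt2, for phosphatidylethanolamine synthesis (-0.48), Ugcg, for glucosylceramide (-0.32), and Lpcat1 (-0.28) fell, and Lpcat4 (0.45), Degs2 (0.34) and Sptlc2 (0.17) rose. Of 20 tested LXR targets 2 were higher and 1 lower (median -0.01), and 12 had a negative sign. Mylip, which degrades the LDL receptor, went from 516, 306 and 437 to 601, 420 and 919 (0.58, adjusted p = 0.0309). Abcg1 (0.22) was the other higher gene and Arl4c (-0.19) the lower one. With LPS 0 of the 2 higher genes kept their sign. The leukotriene helper Alox5ap (0.32) rose, and Ptgs1 (-0.39) fell. Slc7a2, which imports arginine, fell by 0.55 from 1205, 3889 and 2115 to 974, 3122 and 1035.

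The same treatment was measured in libraries that the comparison did not use, the oxLDL+LPS libraries against those with LPS alone. The numbers there did not all mark the same cells as without LPS, since Xist was at 6331 and 3812 in the LPS and oxLDL+LPS libraries numbered 1 and Ddx3y at 459 and 439. Of the 217 higher genes 216 were tested with LPS, and 172 of them, 79.6%, were higher there too, against 48.6% of all other genes. With LPS 102 of them, 47.2%, were called higher and 8 were called lower, where 4.41% of all genes were called higher. Of the 332 lower genes 326 were tested, 281 (86.2%) were lower with LPS and 133 (40.8%) were called so, against 8.75% of all genes, and 5 were called higher. The LPS comparison was itself unstable, with 0 genes called without the block, without number 1 or without number 3 and 2749 without number 2.

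Of the 20 higher antioxidant genes 19 were called higher with LPS as well. The log2 difference there was 1.85 for Gclm (adjusted p = 0.0114) and 1.51 for Prdx1 (adjusted p = 0.00816). The class II genes fell again, by 0.90 for H2-Eb1, 0.87 for H2-Ab1, 0.90 for H2-Aa, 0.89 for Cd74 and 0.89 for Ciita, each with an adjusted p under 0.1. Cx3cr1 and Ccr2 were too low to be tested. Of the 11 lower receptors 7 were tested with LPS and 2 were called lower. Kif21b had a difference of 0.02 (adjusted p = 0.947) and Plau of -0.01 (adjusted p = 0.946). Of the 44 genes named by the rule 42 were tested with LPS, 39 had the same sign, 33 were called in the same direction and 1, Rgs1, in the opposite one. The oxLDL difference itself differed between the LPS states for 14 of the 549 genes, where 1.04% of all genes did. The 549 were picked on their difference without LPS, which enters this contrast, so these shares cannot be compared.

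**Figure D5:**
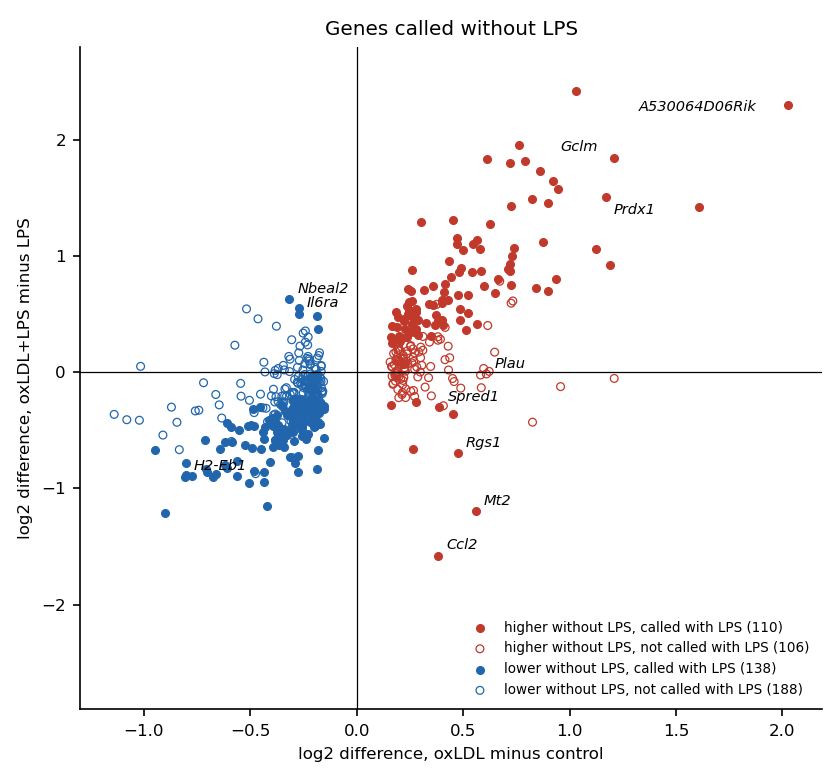
Each point is a gene called without LPS, with its log2 difference without LPS on the x axis and with LPS on the y axis, filled where it was called with LPS (110 of the higher and 138 of the lower genes). Most points lie in the quadrants of equal sign, and Ccl2, Mt2 and Rgs1 lie on the higher side without LPS and the lower side with it.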

How the data were processed

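RNA-seq reads were trimmed (Trimmomatic 0.32), mapped to mm10 by STAR (2.5.1b) and assigned to GENCODE exons by featureCounts. The signal that the authors deposited is in whole numbers, read here as gene counts scaled by a single factor for each library and then rounded. It summed to between 17152972 and 17709731 in control and between 17440329 and 17444102 in oxLDL libraries. Reads per library were not recovered, so no counting interval is given, and no count test was run. Groups were compared with limma (3.58.1, R 4.3.3; lmFit, eBayes with a variance trend, two-sided) on log2(value + 1), which understates changes of low genes, with the replicate number as a block. Deviations from group means correlated at 0.682, 0.687 and 0.711 between control and oxLDL libraries of the same number and at -0.135 to -0.490 between different numbers, over 12734 genes, so the numbers were taken as pairs. The methods describe replicates in general as biological and from independent experiments, and the labels give only their numbers. Benjamini-Hochberg adjusted p under 0.1 was called. Rows with a date in place of a symbol (25, of which 17 passed the filter) were left out. The members, the gene lists and the tests were chosen with earlier results of these data known. Named genes were, outside the exclusions, the 12 higher and 12 lower with the smallest p and the 12 of each with the largest difference at a mean of at least 50, and list members. Positions are from GENCODE on GRCm38 by symbol. Other pseudocounts, filters, scalings, variance models, all 12 libraries in the fit and each number left out were tried. The fits were run on simulated data in which a changed gene moved by the same amount in every pool. That setting does not show how the fits behave where pools respond unequally. Some results that were computed are not reported here.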

Additional observations from a re-analysis of the deposited data

Results flagged for a closer look

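For 14 genes that were called without LPS, the oxLDL difference itself differed between PMφs with and without LPS (limma interaction, adjusted p under 0.1, where 140 of 13465 genes, 1.04%, passed). Being called without LPS makes such a difference more likely, since the same libraries enter the interaction. The change in the log2 difference, with LPS minus without, was 0.78 for the interleukin 6 receptor Il6ra, 0.94 for Nbeal2 and 0.59 for Tsc22d3. It was -1.96 for the chemokine Ccl2, -1.75 for the metallothionein Mt2, -1.17 for Rgs1, -0.81 for the kinase Nek6 and -0.69 for Spred1, an inhibitor of Ras signalling. It was -0.62 for Plau, -0.55 for Nfkbid, -0.54 for the survival gene Bcl2l1, -0.54 for Milr1, -0.49 for the histone demethylase Kdm6b and -0.39 for Wdr43. Ccl2 was higher by 0.38 without LPS and lower by 1.58 with it, and Rgs1 higher by 0.47 and lower by 0.69. Kdm6b was lower in both states, by 0.29 and 0.78. The interaction was called for 0 genes without number 1, without number 3, without the block or with a block shared by both LPS states, and for 713 without number 2. No group held enough libraries to look for outlying ones.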

How the results depend on the processing

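Of the 599 genes called without LPS, the count stayed within 1.5 times under 9 alternatives: pseudocounts of 0.5 and 10, filters of 10 in all 6 libraries and of 50, rescaling to a median ratio or a sum, quantile normalization (416), robust eBayes (579, of which 514 shared) and removal of length and GC trends with the replicate block (586). It was 0 without the replicate block, 0 of 23067 without a filter on low values and 0 with eBayes without a variance trend, with 379, 2099 and 1461 genes at an unadjusted p under 0.05. It was 74 with all 12 libraries in the fit, and 62 to 1021 with 1 number left out. With LPS it was 1680, 0 without the block and 0 to 2749 with a number left out, and the interaction had 140, 0 without the block, 0 with a shared block and 0 to 713. None of the 231 called genes recomputed singly changed sign. Of them 230 were present under the filter of 10 in all 6 libraries and 228 under that of 50. A change was hardly possible, since leaving a pool out cannot reverse a gene with the same sign in all 3. The fits without the block, without the trend or with robust eBayes also keep the difference itself. Named genes outside these 231 were not recomputed singly. The 44 genes named by the rule all stayed called with either pseudocount and the rescaling to a sum, 40 under quantile normalization, 26 under robust eBayes, 19 with 12 libraries, 28, 16 and 42 without pool 1, 2 and 3, and 0 without the block, the filter or the trend. The cause was not tested. Of the antioxidant genes 21 were higher, 9 under robust eBayes and 1 with 12 libraries.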
